A study of Mus musculus with 12 samples.

Results

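The Ly6 and IFITM families were followed here through 8 genes (Ly6a, Ly6c1, Ly6c2, Ly6e, Ifitm1, Ifitm2, Ifitm3 and Ifitm10) of the 32285 in the matrices and through 2 antibodies, Ly.6A_E and Ly.6C, of 102. The genes were chosen by name and no level or fold entered the rule, but the families were proposed with earlier results of these libraries in view, by cell type, by cluster and between the groups. Every value of the members is therefore a description, and each adjusted p-value places a gene among all genes of its fit without adding support to the choice. Tumours of the B16-F10 melanoma line grew after intradermal injection in the skin of B6.129S7-Rag1tm1Mom/J mice, which lack Rag1, and with it host T and B lymphocytes, but keep NK and myeloid cells. Through the retro-orbital route all mice received Pmel Thy1.1 CD8+ T cells, which carry a transgenic receptor for a melanocyte antigen. In the CAL-101 group (3 mice) these T cells had been treated in vitro with CAL-101 (idelalisib, which blocks the delta isoform of PI3K), and in the Control group (3 mice) with vehicle. Live CD45.2+ cells were sorted from tumour tissue digested with collagenase, and each mouse gave 1 library with RNA and antibody tags of the same cells. Ages are not stated in the labels, and the contrast is between T cells treated before transfer, not between treated animals.

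Ly6 proteins are small surface proteins held in the membrane by a lipid anchor. Ly6A, also called Sca-1, marks mouse stem cells and rises on activated lymphocytes, Ly6C marks inflammatory monocytes and many antigen-experienced CD8 T cells, and Ly6E is a widely expressed member used by some viruses. IFITM proteins sit in the plasma and endosomal membranes, where IFITM3 in particular hinders the fusion of enveloped viruses. Many members of both families are induced by interferons, which act on genes through short promoter elements called the ISRE and the GAS.

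The 4 Ly6 genes lie on chromosome 15 and the 4 Ifitm genes on chromosome 7 of the mouse (RefSeq, GRCm38.p6). Ly6a spans chr15:74994877-74998031, Ly6c1 chr15:75044018-75048920, Ly6c2 chr15:75108161-75112066 and Ly6e chr15:74955025-74959904. Ifitm1 spans chr7:140967429-140969827, Ifitm2 chr7:140954837-140959686, Ifitm3 chr7:141009590-141010744 and Ifitm10 chr7:142325835-142373779. The 2 barcode oligos by which the Ly-6 antibodies were counted are shown because all surface values below rest on them.
Ly.6A_E: ttcctttcctacgca
Ly.6C: aagtcgtgaggcatg
The promoters of Ifitm1, Ifitm2 and Ifitm3 are shown because these neighbours had lower levels together in T cells of CAL-101 mice (below). Each window runs from 150 bases before to 30 bases after the RefSeq start, 5′ to 3′ on the gene's own strand. Capitals mark matches, on either strand, to an ISRE core (GAAA, any 2 bases, then GAAA) or a GAS (TTCNNNGAA).
Ifitm1, chr7:140967926-140968105, plus strand: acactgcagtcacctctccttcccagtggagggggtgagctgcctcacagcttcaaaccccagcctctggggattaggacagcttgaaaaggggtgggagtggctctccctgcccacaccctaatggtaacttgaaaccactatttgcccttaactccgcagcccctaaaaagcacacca
Ifitm2, chr7:140955932-140956111, minus strand: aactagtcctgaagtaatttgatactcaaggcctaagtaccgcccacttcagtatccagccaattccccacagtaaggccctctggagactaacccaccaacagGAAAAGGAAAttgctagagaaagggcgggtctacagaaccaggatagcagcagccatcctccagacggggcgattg
Ifitm3, chr7:141010715-141010894, minus strand: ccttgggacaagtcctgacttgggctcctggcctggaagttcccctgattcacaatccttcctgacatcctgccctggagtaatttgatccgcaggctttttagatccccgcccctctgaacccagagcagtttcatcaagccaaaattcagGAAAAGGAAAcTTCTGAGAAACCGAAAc
The Ifitm3 window held 2 ISRE core matches just after the start, with a GAS match that overlaps the second. The Ifitm2 window held 1 ISRE core match 46 bases before the start, and the Ifitm1 window held neither motif. Over windows of 300 bases, 3.44% of 32851 RefSeq promoters held the ISRE core and 8.3% the GAS. No window of that length at Ly6c1, Ly6c2 or Ifitm10 held either. A match is a string of letters and was not measured as a binding site.

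The CAL-101 libraries held 6152 to 7217 cells and the Control libraries 7716 to 9147, 45477 in all, with 75716841 to 93929471 RNA UMIs (molecules counted once) in CAL-101 and 90933212 to 97933109 in Control libraries. The authors' labels put 32861 cells in a T class, 11687 in an NK class, 414 among neutrophils, 360 among monocytes and 127 among dendritic cells. Levels are given as CPM, the UMIs of a gene over all UMIs of that class in 1 mouse, scaled to a fixed total. The 7 T cell markers summed to 11942 to 12673 CPM (CAL-101) and 10453 to 11730 CPM (Control) in T cells, against 978 to 1104 and 773 to 1069 CPM in NK cells. The monocyte label was mixed, since 232 of its cells lay in cluster 10 with all neutrophils and 109 in cluster 11 with most dendritic cells. Libraries shared cell barcodes for 498 cells (1.1%).

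In T cells, members of the 2 families moved in opposite directions. Ly6a and Ly6e were higher in CAL-101 mice, while Ifitm1, Ifitm2, Ifitm3 and Ifitm10 were lower, with log2 differences of -0.82 to -1.54. Ly6c2 varied more between mice than between groups, and Ly6c1 was barely detected. With edgeR's quasi-likelihood test on UMIs summed per mouse, adjusted over all genes with a threshold of 0.05, 6 of the 8 genes passed, 2 higher and 4 lower. Of the 16734 genes tested in T cells, 19.1% passed, 9.46% higher and 9.63% lower, and the groups did not overlap for 39.6%. With T cells of clusters 1 to 5 alone, which leaves out those lying in NK clusters and in a cluster of damaged cells, the same 6 genes passed against 17.3% of 16450 genes. T cells lay in different clusters in the 2 groups: cluster 5 held 21.8% ± 0.439 of those of CAL-101 and 2.30% ± 0.679 of those of Control mice, and cluster 3 held 7.39% ± 3.08 and 27.3% ± 6.39 (SD, n = 3 each). Cluster 5 was the highest in Ly6a and cluster 3 the highest T cell cluster in Ifitm1 (below), so levels over all T cells hold both this shift and the differences inside clusters.

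Ly6a, which encodes Sca-1, had 542, 603 and 585 CPM in T cells of CAL-101 mice 1 to 3, against 435, 363 and 372 CPM in Control mice 1 to 3. All CAL-101 mice lay above all Control mice. The means were 577 ± 31.0 and 389.9 ± 39.0 CPM (SD, n = 3 each), a log2 difference of 0.53 (SE 0.08, edgeR adjusted p = 0.00475). Ly6e, an interferon-induced member linked to viral entry, had 662, 622 and 621 CPM in CAL-101 mice, against 515, 556 and 484 CPM in Control mice. The groups again did not overlap, with a smaller log2 difference of 0.25 (SE 0.07, edgeR adjusted p = 0.0331). The Ly6e call was lost when any of 5 mice was left out, with an adjusted p of up to 0.138 (without Control mouse 3). It held only without Control mouse 2 (adjusted p = 0.0107).

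Ly6c2, one of the 2 genes that encode the Ly6C antigen, had 561, 837 and 705 CPM in T cells of CAL-101 mice, against 664, 457 and 628 CPM in Control mice. The groups overlapped, and the log2 difference was 0.23 (SE 0.17, edgeR adjusted p = 0.384). The highest value was that of CAL-101 mouse 2 and the lowest that of Control mouse 2. Ly6c1, the other Ly6C gene, gave 80 UMIs over all T cells, 0.0904 to 0.391 CPM in CAL-101 and 0.0367 to 0.242 CPM in Control mice, too few to compare. Ly6c1 and Ly6c2 are close paralogs, so the split of reads between them is uncertain. Summed as 1 gene they gave the same log2 difference of 0.23 (adjusted p = 0.384).

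Ifitm1, an IFITM gene of the plasma membrane, had 179.7, 659 and 407 CPM in T cells of CAL-101 mice, against 1168, 946 and 1346 CPM in Control mice. Every CAL-101 mouse lay below every Control mouse, but the CAL-101 mice spread widely, and mouse 1 was the lowest. The means were 415 ± 239.9 and 1153 ± 201 CPM (SD, n = 3 each), a log2 difference of -1.51 (SE 0.39, edgeR adjusted p = 0.0310). That call was lost without Control mouse 1 (adjusted p = 0.0775), Control mouse 3 (0.0967) or CAL-101 mouse 3 (0.108).

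Ifitm2, its neighbour on chromosome 7, had 94.5, 178 and 131 CPM in CAL-101 mice, against 405, 335 and 404 CPM in Control mice. The means were 134 ± 41.6 and 381 ± 40.1 CPM, with a log2 difference of -1.54 (SE 0.20, edgeR adjusted p = 0.00242). Ifitm3, the best known antiviral member, had 225, 383 and 272 CPM in CAL-101 mice, against 684, 727 and 646 CPM in Control mice. Its log2 difference was -1.26 (SE 0.17, edgeR adjusted p = 0.00274). As for Ifitm1, CAL-101 mouse 1 was the lowest and CAL-101 mouse 2 the highest of its group for both genes. Ifitm2 and Ifitm3 are close paralogs too, and summed as 1 gene they gave -1.36 (adjusted p = 0.00222).

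Ifitm10, a distant member whose role is little known, was scarce in T cells. It had 4.23, 3.65 and 3.5 CPM in CAL-101 mice, against 6.83, 5.75 and 6.85 CPM in Control mice, without overlap (log2 difference -0.82, SE 0.11, edgeR adjusted p = 0.00293). NK cells held more of it, and T cells had 14.2 to 24.0% of the NK level. The 7 NK marker genes summed to 392 to 497 CPM in T cells of CAL-101 mice, against 526 to 660 CPM in those of Control mice. In T cells of clusters 1 to 5 Ifitm10 differed by -0.73 (adjusted p = 0.0211) and stood at 9.74 to 19.8% of its NK level. The NK markers summed there to 10.4 to 13.4% of their NK level, from 0.120 to 1.30% for Ncr1 to 66.5 to 92.5% for Klrk1, which CD8 T cells also express, and to 341 to 386 CPM in CAL-101 against 417 to 430 CPM in Control mice. The part of NK cell RNA in the Ifitm10 difference was not tested.

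**Figure D1:**
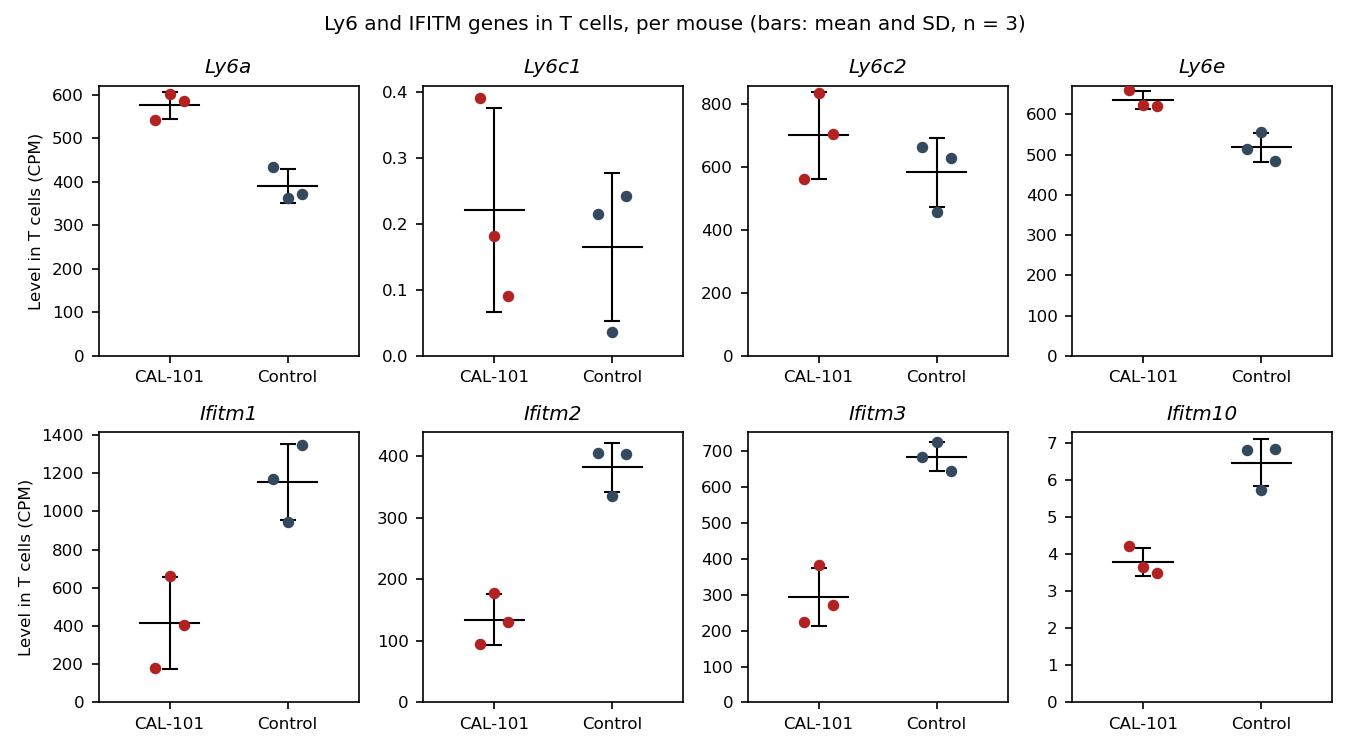
Level of each Ly6 and IFITM gene in T cells, in CPM on a linear axis from 0, with 1 point per mouse and bars for the mean and SD (n = 3 each). CAL-101 mice are left of Control mice in each panel: Ly6a and Ly6e lie higher, Ifitm1, Ifitm2, Ifitm3 and Ifitm10 lie lower, and the groups overlap for Ly6c1 and Ly6c2.

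The shares of T cells in which each gene was seen followed the levels. Each cell was thinned to 1600 UMIs, which left out 1434 T cells of CAL-101 and 1181 of Control mice. Ifitm1 was then found in 21.9% ± 11.9 of T cells of CAL-101 mice and in 53.7% ± 7.79 of those of Control mice (SD, n = 3 each; 38.8% and 74.5% unthinned). Ifitm2 was found in 13.1% ± 5.08 and 35.6% ± 2.40, and Ifitm3 in 24.0% ± 7.18 and 46.4% ± 1.28 (CAL-101 and Control). Unthinned, these shares were 38.5% and 67.3% for Ifitm2 and 50.4% and 73.3% for Ifitm3. Ly6a was found in 50.4% ± 3.40 and 37.5% ± 3.38, and Ly6e in 56.2% ± 0.10 and 50.4% ± 1.72. Unthinned, the groups overlapped for Ly6a (77.2% and 70.5%) and Ly6e (82.7% and 81.7%). Ifitm10 was found in 0.657% and 1.03% (4.36% and 6.75% unthinned). These 6 genes did not overlap after thinning, as held for 28.4% of the 16734 genes tested, with an exact 2-sided permutation p of 0.1 each, the smallest that 3 against 3 mice allow (0.133 adjusted over the 8 genes). Ly6c2 overlapped, at 52.3% ± 8.01 and 48.0% ± 7.88 (exact permutation p = 0.6). In NK cells, thinned alike, Ifitm1 was found in 6.51% and 13.1% with overlap (exact permutation p = 0.2), and Ifitm3 in 5.0% and 9.94% without overlap, as held for 18% of genes (CAL-101 and Control; unthinned, 19.7% and 39.0% for Ifitm1 and 19.0% and 32.5% for Ifitm3). By level the 7 T cell markers together stood in NK cells at 7.39 to 9.18% of their T cell level. Ifitm1 stood at 5.90 to 20.3%, Ifitm2 at 14.4 to 54.5% and Ifitm3 at 6.89 to 16.5% of theirs. Ifitm1 and Ifitm3 lay above the markers in every mouse but Control mouse 2. The part of T cell RNA in the Ifitm shares was not tested, so they are not read as NK expression. The median T and NK cell kept for this held 10493 and 7039.5 UMIs.

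Inside single clusters the direction of the T cell values repeated. Of 41 tests of a member in T cells of clusters 1 to 6, 23 passed, and all 23 had the sign seen over all T cells. Ifitm2 was lower in all 6 clusters, from -2.13 in cluster 1 to -0.68 in cluster 3, and so was Ifitm3, from -1.72 in cluster 1 to -0.63 in cluster 3. Ifitm1 passed in 5 clusters, at -1.16 to -1.76, and not in cluster 3. Ly6a was higher in clusters 1 to 5, by 0.30 to 0.48, and did not pass in cluster 6 (0.70, edgeR adjusted p = 0.0848). Ifitm10 passed in cluster 2 alone (-0.84, adjusted p = 0.0336), and Ly6e and Ly6c2 passed in none. The share of all genes that passed was 11.9% in cluster 1, 12.6% in cluster 2, 6.74% in cluster 3, 8.33% in cluster 4, 5.24% in cluster 5 and 1.25% in cluster 6. Without CAL-101 mouse 3 the count was 12 and without Control mouse 3 it was 15, against 23 with all mice.

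Cluster 3 had the highest Ifitm1 level of the T cell clusters, 1297 ± 439 CPM over all 6 mice. Within its T cells Ifitm1 averaged 1103 ± 541 CPM in CAL-101 and 1491 ± 271 CPM in Control mice (log2 difference -0.50, SE 0.32, edgeR adjusted p = 0.403). CAL-101 mouse 1 stood apart, at 499.8 CPM over the cluster, while CAL-101 mice 2 and 3, at 1550.4 and 1258 CPM, lay among the Control mice at 1431, 1255 and 1787 CPM. Cluster 1 had 187 ± 133 and 554 ± 149.9 CPM, and cluster 2 had 415 ± 203 and 1242 ± 127 CPM (CAL-101 and Control, T cells). Because cluster 3 had the smallest differences for all 3 genes, its effect was set against those of clusters 1, 2 and 5 after the values were seen. With limma on the difference within each mouse, Ifitm2 differed by 1.49 between clusters 3 and 1 (SE 0.17, adjusted p = 0.0789), where 0% of 11465 genes passed. Ifitm3 differed by 0.72 between clusters 3 and 2 (SE 0.10, adjusted p = 0.0887), where 0.203% of 12780 genes passed. Against cluster 5 it differed by 0.90 (SE 0.16, adjusted p = 0.472), where 0% of 11836 genes passed. No member passed in any of the 3, so that the effect is not shown to differ between these clusters.

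**Figure D2:**
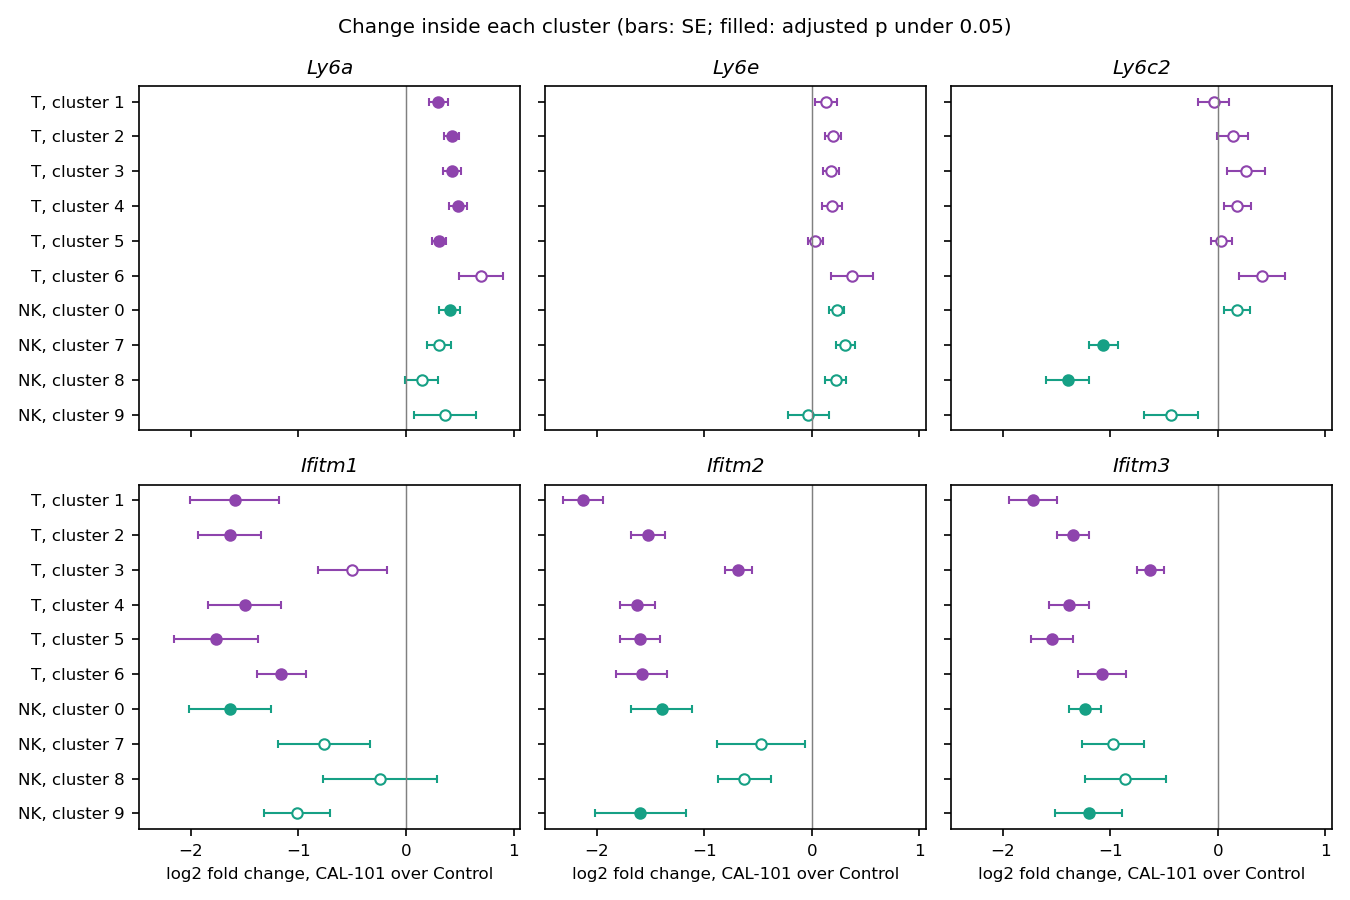
Log2 fold change of 6 members, CAL-101 over Control, inside T cells of clusters 1 to 6 and NK cells of clusters 0, 7, 8 and 9. Bars are SE and filled points passed an adjusted p of 0.05: Ifitm2 and Ifitm3 lie left of 0 in every row, Ly6a right of 0, and Ly6c2 is filled only in NK cells of clusters 7 and 8.

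In NK cells, host cells that were not themselves treated, Ly6c2 was the only member past the threshold with edgeR, at 186, 176 and 162 CPM in CAL-101 mice, against 249.4, 250.2 and 285 CPM in Control mice. All CAL-101 mice lay lower, with means of 175 ± 12.4 and 261 ± 20.1 CPM (SD, n = 3 each; log2 difference -0.61, SE 0.08, edgeR adjusted p = 0.0123). With DESeq2, 4 members passed (Ly6a, Ly6c2, Ly6e and Ifitm3). The share of all genes that passed with DESeq2 is not given here, so that count is not read against it. Of 14028 genes, 4.89% passed with edgeR, and the groups did not overlap for 26.8%. The Ly6c2 call was lost without Control mouse 3 (adjusted p = 0.0557) or CAL-101 mouse 3 (0.0655). Ly6e had 760 ± 29.0 CPM in CAL-101 and 619.9 ± 74.9 CPM in Control mice, without overlap but past no threshold (0.26, SE 0.08, adjusted p = 0.0988). The other values overlapped, with log2 differences of 0.38 for Ly6a (adjusted p = 0.135), -0.56 for Ifitm3 (0.111), -0.63 for Ifitm1 (0.521), -0.46 for Ifitm2 (0.563) and -0.15 for Ifitm10 (0.353).

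By NK cluster, Ly6c2 passed in clusters 7 and 8 and did not pass in clusters 0 and 9. In cluster 7 Ly6c2 had 213 ± 40.4 CPM in CAL-101 and 434 ± 36.2 CPM in Control mice (log2 difference -1.06, SE 0.14, edgeR adjusted p = 0.0124), where 0.799% of genes passed. In cluster 8 it had 85.8 ± 24.8 and 235 ± 59.4 CPM (-1.40, SE 0.20, adjusted p = 0.0131), where 9 genes or 0.0977% passed. In the main NK cluster, number 0, the values were 168 ± 38.4 and 151 ± 16.5 CPM (0.18, SE 0.12, adjusted p = 0.443), and in cluster 9 they were 162 ± 64.2 and 195 ± 38.5 CPM (-0.43, adjusted p = 0.578). In cluster 7 Ly6c2 stood at 25.3 to 86.6% of its T cell level in the same mouse. The 7 T cell markers together stood there at 5.23 to 5.81% in CAL-101 and 6.04 to 6.58% in Control mice. In cluster 8 Ly6c2 stood at 8.17 to 20.4% in CAL-101 and 36.8 to 42.6% in Control mice. The markers stood there at 5.51 to 7.62% in CAL-101 and 7.98 to 12.2% in Control mice, without overlap. As summed CPM the markers of cluster 8 overlapped (698 to 910 and 835 to 1436 CPM). The part of T cell RNA in the values of clusters 7 and 8 was not tested. The effect in clusters 7 and 8 was set against that in cluster 0 after these values were seen. The differences of -1.19 (SE 0.31, adjusted p = 0.658) and -1.58 (SE 0.24, adjusted p = 0.758) did not pass, and 0% of 10877 and of 9191 genes did.

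In NK cells of cluster 0, where 4.9% of genes passed, Ifitm1 (-1.64), Ifitm2 (-1.40) and Ifitm3 (-1.23) were lower and Ly6a (0.41) was higher in CAL-101 mice, as in T cells. Their adjusted p-values were 0.0226, 0.0118, 0.000495 and 0.0249 (edgeR). Unlike in T cells, the groups overlapped for Ifitm1 (10.5 to 56.0 CPM in CAL-101 and 46.6 to 94.8 CPM in Control mice). They also overlapped for Ifitm2 (7.22 to 21.62 and 21.55 to 38.4 CPM), but not for Ifitm3 or Ly6a. The share of all genes without overlap is not given for this cluster. The levels of the 3 Ifitm genes were low there, for Ifitm3 26.2 ± 7.74 CPM in CAL-101 and 53.8 ± 4.56 CPM in Control mice. They stood at 4.93 to 12.2% of the T cell level of the same mouse, while the 7 T cell markers together stood at 6.81 to 8.85%. The part of T cell RNA in the Ifitm values and in their difference was not tested, so they are not read as NK expression. Ly6a stood at 16.8 to 20.5% of its T cell level and Ly6c2 at 15.4 to 36.6%, above the markers. In cluster 9, where 0.767% of genes passed, Ifitm2 (-1.59, adjusted p = 0.0429) and Ifitm3 (-1.20, adjusted p = 0.0387) passed. The T cell markers stood at 14.7 to 17.4% of their T cell level there, Ifitm2 at 16.9 to 37.2% and Ifitm3 at 15.4 to 25.9%. T-labelled cells of cluster 0 had Ifitm1 levels of 11.8 to 44.6 CPM in CAL-101 and 50.4 to 116 CPM in Control mice, far below other T cells.

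The change was also compared directly between T and NK cells of the same mice with limma. Ifitm10 differed, with a T minus NK effect of -0.63 (SE 0.09, adjusted p = 0.05 after rounding and just under the threshold). Its effects were -0.82 in T and -0.15 in NK cells, where single clusters ran from -0.60 to 0.12 and none passed. Of 13901 genes, 0.906% passed, and the Ifitm10 call was lost without any 1 of the 6 mice (adjusted p of 0.0841 to 0.21). Ly6c2, at 0.84 (adjusted p = 0.148), Ifitm1, at -0.90 (0.218), Ifitm2, at -1.01 (0.218), and Ifitm3, at -0.76 (0.167), did not pass. Their effects are therefore not shown to differ between T and NK cells.

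Across the deposited classes the IFITM genes had their highest mean in neutrophils. Ifitm1 averaged 3974 CPM in neutrophils, 784 in T cells, 690.3 in monocyte-labelled cells, 239 in dendritic cells and 87.2 in NK cells (means of 6 mice). The neutrophil range, 2723 to 4995 CPM, lay above all T cell values, and the following neighbours overlapped. Ifitm2 averaged 2397 CPM in neutrophils, again apart from the next class, then 735 in monocyte-labelled, 519 in dendritic, 258 in T and 65.2 in NK cells. Ifitm3 averaged 2313 CPM in neutrophils, 2050.0 in monocyte-labelled, 1451 in dendritic, 489.5 in T and 55.6 in NK cells. For Ifitm3 the first 3 classes overlapped, and T cells lay below dendritic and above NK cells in every mouse. Ifitm10 averaged 50.3 CPM in neutrophils, 27.6 in NK, 17.9 in monocyte-labelled, 5.14 in T and 0.583 in dendritic cells, and T and dendritic cells did not overlap. Neutrophil markers in T cells summed to 0.00176 to 0.0399% of their neutrophil level, while Ifitm1 stood at 5.23 to 28.4%, Ifitm2 at 3.70 to 16% and Ifitm3 at 7.79 to 36.7% of theirs.

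The Ly6 genes had flatter profiles. Ly6a averaged 483 CPM in T cells, 482 in dendritic, 324 in monocyte-labelled, 212 in neutrophils and 166 in NK cells. Ly6c2 averaged 642 CPM in T cells, 324 in dendritic, 305 in monocyte-labelled, 218 in NK cells and 195 in neutrophils. Ly6e averaged 690.2 CPM in NK, 671 in dendritic, 577 in T, 516 in monocyte-labelled cells and 505 in neutrophils. For these 3 genes each class overlapped the next in its range over mice. Ly6c1 averaged 10.7 CPM in monocyte-labelled cells, from 21 UMIs in all, of which CAL-101 mouse 2 gave the highest level (40.0 CPM), and 1.91 CPM as a mean over cells of the CPM of each cell. It gave 0 of 1547481 UMIs in neutrophils, which allows a level of up to 1.94 CPM (3 counts over all 6 mice, counting error only). Levels per mouse were not computed for the 13 basophils, 8 B cells and 7 progenitors.

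Among the clusters, Ly6a was highest in cluster 5 (638 ± 89.4 CPM over 6 mice) and lowest in NK cluster 0 (95.3 ± 22.2 CPM). Ly6c2 was also highest in cluster 5 (892 ± 101 CPM), followed by cluster 3 (769.6 ± 187 CPM), and these ranges overlapped. Ifitm1 was highest in the neutrophil cluster 10 (2507 ± 1066 CPM) and lowest in NK cluster 0 (51.9 ± 31.7 CPM). Ifitm3 was highest in cluster 12 (1727 ± 205 CPM, 4 mice), a small cluster of mixed labels, and stood at 729 ± 176 CPM in cluster 3. Giving each T cell cluster equal weight kept the groups apart for the 6 genes, for example at 432 ± 229 against 941 ± 79.0 CPM for Ifitm1 and 542.5 ± 18.4 against 402 ± 25.4 CPM for Ly6a (CAL-101 against Control). The share of all genes kept apart with equal weights was not computed, so this count is not read against it.

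**Figure D3:**
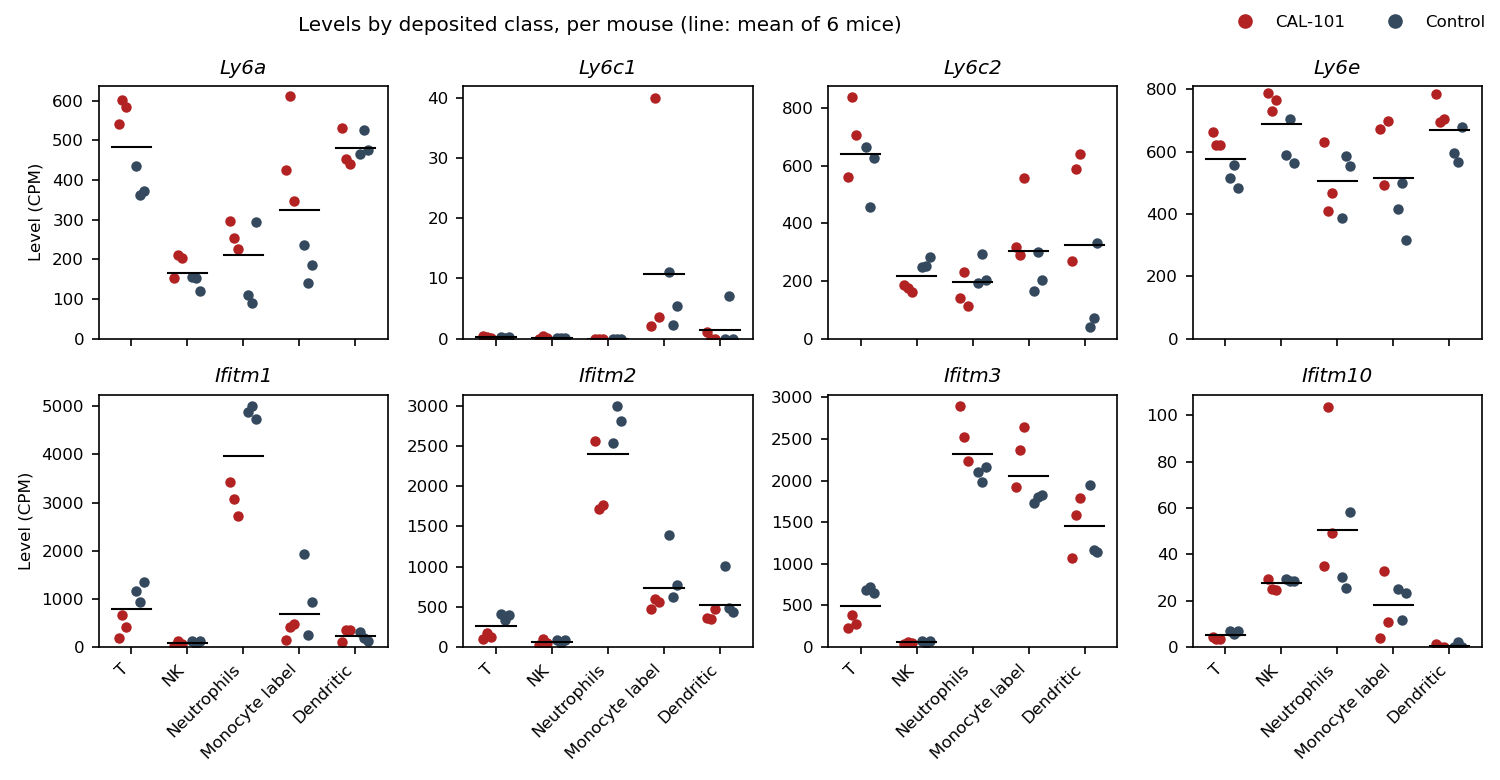
Level of each member by deposited class, in CPM on linear axes from 0, with 1 point per mouse (CAL-101 left of Control) and a line at the mean of 6 mice. Ifitm1 and Ifitm2 in neutrophils lie above every other class, while the class ranges of Ly6a, Ly6c2 and Ly6e run into each other.

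Neutrophils were described without a fit, since CAL-101 mouse 1 gave 13 of them, mice 2 and 3 gave 45 and 41, and the Control mice gave 206, 36 and 73. Ifitm1 had 3433, 3073 and 2723 CPM in neutrophils of CAL-101 mice, against 4875, 4995 and 4743 CPM in those of Control mice. Ifitm3 had 2890.2, 2519 and 2229 CPM in CAL-101 mice, against 2099, 1983 and 2160.2 CPM in Control mice. The groups did not overlap for either gene and lay in opposite order, and they did not overlap for 14.6% of 2338 genes with enough counts in neutrophils. For Ifitm2, Ifitm10, Ly6a, Ly6c2 and Ly6e the neutrophil levels of the groups overlapped, and Ly6c1 gave no UMIs. In monocyte-labelled cells no member passed, 0% of 5906 genes did (edgeR; 1 gene with DESeq2), and the groups did not overlap for 7.16%. Ly6a had 461 ± 136 CPM in CAL-101 and 187 ± 48.7 CPM in Control mice there, without overlap (1.23, SE 0.43, adjusted p = 0.999, unadjusted p = 0.0143). Ifitm1 had 348 ± 182 and 1032 ± 847 CPM (-1.67, SE 0.71, adjusted p = 0.999, unadjusted p = 0.0369). These were the 2 members with an unadjusted p under 0.05. The groups did not overlap for Ifitm2 (541 ± 60.9 and 928 ± 411 CPM) or Ifitm3 (2313 ± 363 and 1787 ± 50.7 CPM) either. Ifitm3 was thus higher in CAL-101 mice there, opposite to T cells. Neutrophil markers summed to 676 to 5288 CPM in these cells of CAL-101 mice and to 2438 to 20986 CPM in those of Control mice, and T cell markers to 1157 to 3030 CPM and 421 to 1835 CPM. The part of the first in the Ifitm1 values and of the second in the Ly6a values was not tested.

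At the cell surface, the Ly.6A_E antibody, which binds the Ly6A/E antigen, took 5.80, 5.55 and 5.78% of the antibody tags of T cells in CAL-101 mice, against 5.27, 3.98 and 4.04% in Control mice. The groups did not overlap, and Control mouse 1 lay nearest to the CAL-101 mice. The means were 5.71% ± 0.137 and 4.43% ± 0.728 (SD, n = 3 each), with a log2 difference of 0.20 (SE 0.17, edgeR adjusted p = 0.439 over 102 antibodies, unadjusted p = 0.284). Antibody log2 differences, here and below, were fitted after TMM scaling over the panel. Shares are of all tags, so the ratio of the printed shares can differ from the fitted value. Set against the summed isotype controls the groups overlapped, with ratios of 16.08, 15.11 and 14.83 in CAL-101 mice and 18.02, 12.19 and 11.38 in Control mice. Without Control mouse 1 the difference was 0.42 (adjusted p = 0.0140). Among all antibodies on T cells 21.6% passed, and the groups did not overlap for 52.9%. In the median T cell with at least 500 tags the share was 5.21, 5.25 and 5.62% in CAL-101 mice and 4.53, 3.23 and 3.39% in Control mice. The highest of 7 isotype controls took 0.0790% of the T cell tags.

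The Ly.6C antibody took 5.04, 9.54 and 7.35% of T cell tags in CAL-101 mice, against 6.78, 3.43 and 5.96% in Control mice (log2 difference 0.28, SE 0.36, edgeR adjusted p = 0.588, unadjusted p = 0.473). The groups overlapped, with CAL-101 mouse 2 highest and Control mouse 2 lowest, as for Ly6c2 RNA. The same 2 mice marked the ends in NK cells, at 3.30, 5.90 and 4.02% in CAL-101 and 5.09, 3.05 and 5.03% in Control mice, and in neutrophils, at 8.36, 10.1 and 8.64% and at 9.60, 7.78 and 8.30%. Neither antibody passed in NK cells, where 1 antibody in all, 0.98%, did. Ly.6C differed there by -0.26 (SE 0.25, adjusted p = 0.525) and Ly.6A_E, at 1.39, 1.99 and 1.58% in CAL-101 against 1.5, 1.45 and 1.18% in Control mice, by -0.01 (SE 0.16, adjusted p = 0.961). In NK cluster 7, where Ly6c2 RNA was lower, Ly.6C took 3.63% ± 1.10 and 4.77% ± 0.991 of tags (-0.61, SE 0.23, adjusted p = 0.264). In NK cluster 8, where Ly6c2 RNA was lower too, it took 3.40% ± 0.846 and 3.43% ± 0.984 (-0.13, SE 0.24, adjusted p = 0.888).

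**Figure D4:**
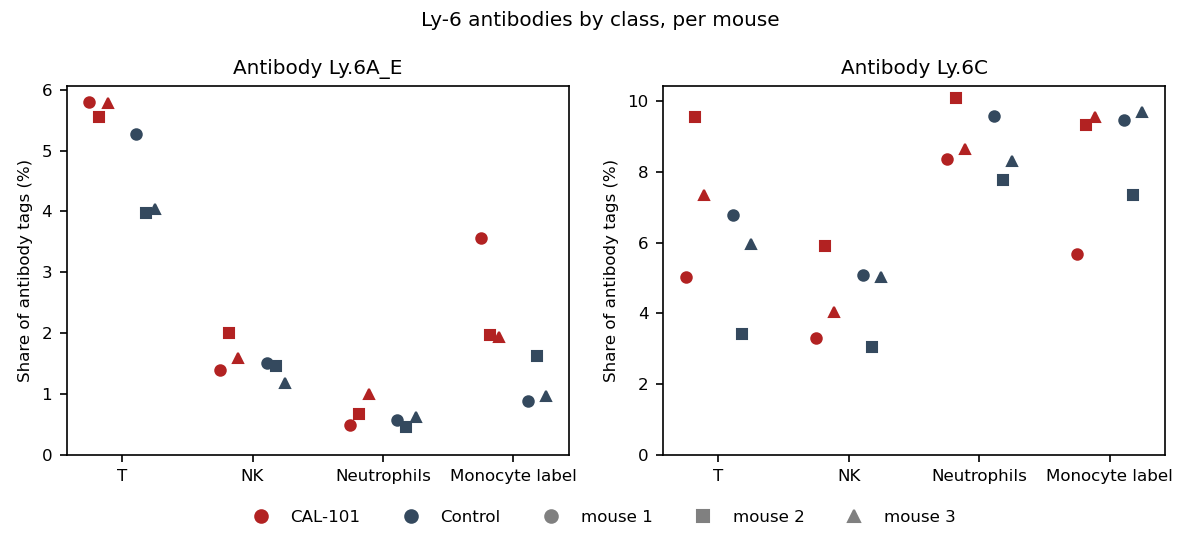
Share of antibody tags taken by Ly.6A_E and Ly.6C in 4 classes, in percent on axes from 0, with 1 point per mouse (CAL-101 left of Control; symbols give the mouse number). Ly.6A_E in T cells is higher in all CAL-101 mice, and CAL-101 mouse 2 and Control mouse 2 mark the ends of the Ly.6C range in T cells, NK cells and neutrophils.

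RNA and antibody ran together over the 13 clusters of at least 100 cells. Between Ly6a RNA and Ly.6A_E the Pearson correlation of log2 values was 0.828 (Spearman 0.83), and between Ly6c2 RNA and Ly.6C it was 0.782 (Spearman 0.698). Clusters share libraries and were made from the same RNA, so these are descriptions. Neutrophils departed from them most plainly, with 8.79% ± 0.869 of tags from Ly.6C over 6 mice at 195 ± 64.1 CPM of Ly6c2, while T cells had 6.35% ± 2.09 at 642 CPM. The Ly.6G antibody, specific for neutrophils, took 11.02% ± 2.41 of neutrophil tags in CAL-101 and 10.995% ± 2.06 in Control mice.

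**Figure D5:**
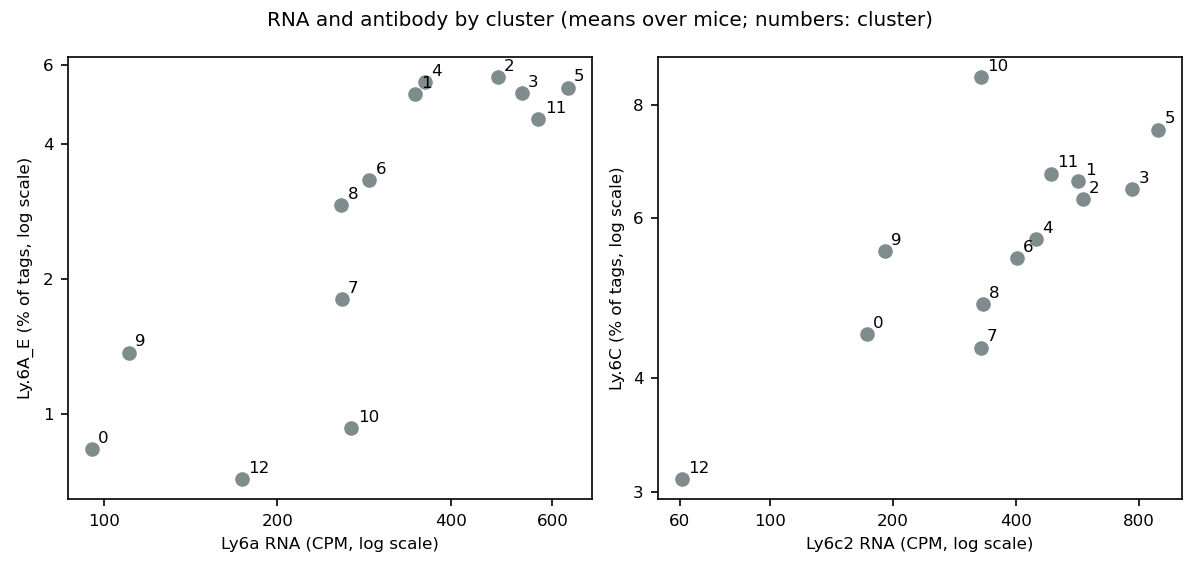
Mean RNA level in CPM (x, log scale) against mean share of antibody tags in percent (y, log scale) for Ly6a with Ly.6A_E and Ly6c2 with Ly.6C, over 13 clusters named by number. The T cell clusters 1 to 5 lie at the upper right for Ly6a, and the neutrophil cluster 10 lies above the other clusters for Ly.6C.

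The genes whose level over the 13 clusters was most like that of a member were picked by the Pearson correlation of log2(CPM + 1) among 8703 genes. They were Eno3, Cd200 and Slc17a6 for Ly6a (0.922 to 0.894), Ltb, Cd160 and Jaml for Ly6c2 (0.952 to 0.949) and Parvg, Was and Spint2 for Ly6e (0.943 to 0.935). For Ifitm1 they were Pla1a, Slfn1 and Rbm38 (0.935 to 0.889), for Ifitm2 Egln3, Marcksl1 and Ebi3 (0.87 to 0.851), for Ifitm3 Ube2l6, Fabp5 and Plin3 (0.952 to 0.871) and for Ifitm10 Selenon, Acpp and Slc25a33 (0.953 to 0.927). Between members, Ifitm2 and Ifitm3 gave 0.899 and Ly6a and Ly6c2 gave 0.735.

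Many interferon-stimulated genes were higher in T cells of CAL-101 mice, as were Ly6a and Ly6e, while the Ifitm genes were lower. Of 26 interferon-stimulated genes tested, 13 were higher and 0 lower, with a median log2 difference of 0.412 against 0.002 over all genes. Of all genes tested in T cells, 9.46% were higher and 9.63% lower. Ifit1, which binds foreign RNA, had 28.8 ± 6.24 CPM in CAL-101 and 13.1 ± 2.69 CPM in Control mice (1.09, edgeR adjusted p = 0.00594). Oasl1, a regulator of IRF7 translation in mice, had 21.6 ± 5.18 and 11.1 ± 1.49 CPM (0.91, adjusted p = 0.00914). Rtp4 (0.72, adjusted p = 0.00896) and Ifi35 (0.36, adjusted p = 0.00562) were higher too. Of 18 interferon receptors and signalling genes, 5 were higher and 2 lower, with a median of 0.0384. Usp18, a brake on the type I receptor, had 63.9 ± 12.4 and 29.8 ± 2.54 CPM (1.06, adjusted p = 0.00203). The receptor inhibitors Socs1 (0.51, adjusted p = 0.00543) and Socs3 (0.50, adjusted p = 0.00420) were higher, and the transcription factor Irf8 was lower (-0.79, adjusted p = 0.00550). Ifng, encoding interferon gamma, was the only interferon gene tested, at 373 ± 8.56 and 474 ± 125 CPM (-0.39, adjusted p = 0.132).

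Of 30 other genes of the Ly6/uPAR superfamily in the files, 9 could be tested in T cells, 1 was higher and 1 lower, with a median of -0.275. Over all genes 9.46% were higher and 9.63% lower. Ly6k, expressed in testis, had 2.27 ± 0.322 CPM in CAL-101 and 0.937 ± 0.195 CPM in Control mice (adjusted p = 0.00436). Cd59a, a complement inhibitor, had 0.109 ± 0.0289 and 0.328 ± 0.0862 CPM (adjusted p = 0.0164). Lypd6b (-0.78, adjusted p = 0.0521) and Plaur, the urokinase receptor (-0.83, adjusted p = 0.0746), did not pass. Ifitm5 was the only further IFITM gene tested (-0.69, adjusted p = 0.188). Of 10 memory and effector genes that Ly6C is commonly read with, 3 were higher and 3 lower, with a median of -0.122. Cxcr3 (1.82, adjusted p = 8.31e-05) and Tcf7 (1.98, adjusted p = 0.00176) were higher, while Gzmb (-1.18, adjusted p = 0.00869) and Il7r (-0.62, adjusted p = 0.00962) were lower.

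In NK cells 0 of 26 interferon-stimulated genes passed with edgeR, where 4.89% of all genes passed. An unadjusted p under 0.05 was found for 9, and DESeq2 called 4, all higher, its share of all genes not being given here. Their median log2 difference was 0.168, against -0.00114 over all genes. The closest were Ifi44 (0.80, edgeR adjusted p = 0.0570) and Ifi27l2a (0.41, adjusted p = 0.0761). Of the 18 receptor and signalling genes Usp18 alone was higher (0.50, adjusted p = 0.0288), and Ifnar1 did not pass (-0.29, adjusted p = 0.0573). Il7r (-0.89, adjusted p = 0.0164) and Ccr7 (-0.89, adjusted p = 0.0295) were the 2 lower of 10 memory and effector genes. None of 6 other Ly6/uPAR genes passed.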

How the data were processed

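The members and lists were chosen with earlier results of these data known. The authors deposited UMI counts per cell, unscaled, for RNA and antibody tags of 6 mice in 12 sample records. The counts came from Cell Ranger 7.1.0, per the file headers, with build mm10, and Seurat is named without a version, per the submitters' processing notes. The authors also deposited 1 of 14 cluster numbers and 1 of 10 cell labels for each cell, by a method that the sources used here do not give. Cells labelled as T, as CD8+ T or as CD4+ T form the T class. Cells were taken as deposited (at least 500 UMIs) and no doublet caller was run. All deposited columns of values were used.

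UMIs were summed per mouse and class or cluster with at least 20 cells in every mouse. The test was the quasi-likelihood F test of edgeR 4.0.16 under R 4.3.3, after TMM scaling and filterByExpr, with no covariate. P-values were adjusted by Benjamini-Hochberg over all genes or all 102 antibodies, with a threshold of 0.05. The T minus NK and cluster differences came from limma 3.58.1 (prior count 2), and DESeq2 1.42.0 was an alternative. Standard errors came from the fold change and its F statistic. Levels are CPM on library size, and antibody levels are shares of tags. The edgeR and limma steps were first tested on made-up counts with known answers. Python 3.11.15, numpy 2.4.6, pandas 2.3.3, scipy 1.17.1 and matplotlib 3.10.9 did the rest. Each library is 1 mouse, and replicates differed beyond sampling noise (5.06 to 45.3 times the variance of pure counting). Promoters and antibody oligos came from RefSeq (GRCm38.p6) and the deposited antibody table.

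All members were named. Of each further list, up to 4 genes of smallest p in T cells and 2 in NK cells were named, with the 3 genes most like each member that reached 20 CPM in a cluster.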

Additional observations from a re-analysis of the deposited data

Results flagged for a closer look

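Ifitm10 was singled out because its CAL-101 effect differed between T and NK cells of the same mice. The T minus NK difference was -0.63 on the log2 scale (SE 0.09, limma, adjusted p = 0.05 after rounding and just under the threshold), from effects of -0.82 in T cells and -0.15 in NK cells. Levels were 3.79 ± 0.385 CPM in T cells of CAL-101 mice and 6.48 ± 0.630 CPM in those of Control mice, and 26.4 ± 2.78 and 28.9 ± 0.504 CPM in NK cells (SD, n = 3 each). Over the 3 NK clusters fitted, the log2 difference of Ifitm10 ran from -0.60 to 0.12, and none passed. In NK cluster 0 it had 34.4 ± 1.79 CPM in CAL-101 and 31.7 ± 0.666 CPM in Control mice, without overlap (0.12, edgeR adjusted p = 0.503). The T minus NK call did not hold with a prior count of 0.5 or without any 1 mouse.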

How the results depend on the processing

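In T cells 6 members passed, against 4 to 6 when each mouse was left out in turn. With paralogs summed, which leaves fewer genes to call, 5 passed and no call was lost. In NK cells 1 member passed, against 4 with DESeq2, 3 without a filter on low counts, 2 with sums thinned to the smallest library and 0 to 3 when each mouse was left out. The all-gene shares with DESeq2, without the filter and with thinned sums are not given here. NK cells thus limit what can be said: all-gene calls there ran from 4 (without CAL-101 mouse 3) to 1590 (without Control mouse 2), against 686. The count over single T cell clusters was 23, against 12 to 22 with a mouse left out. The Ly-6 antibodies called in T cells were 0, against 0 to 1. The T minus NK difference gave 1 call, against 0 with a prior count of 0.5 and 0 to 0 with a mouse left out. No alternative moved the count of members called in monocyte-labelled cells from 0.

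Same-numbered T cell libraries gave correlations of -0.253, -0.243 and 0.00453 between their deviations, and different-numbered ones gave -0.132 to 0.292. Deviations were taken from the mean of 3 mice, which ties these values to each other. They therefore cannot exclude a pairing by number. With the replicate block 5 members passed in T cells (Ly6e lost, adjusted p = 0.103), 19 of the single-cluster tests passed and the T minus NK difference gave 0 calls.

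Signs changed for some values that passed no test. Ly6c1 in T cells (0.23) gave -0.19 with thinned sums and -0.35 to 0.61 with a mouse left out. Ly.6A_E in NK cells (-0.01) gave 0.27 by library size, 0.0116 with DESeq2, 0.000858 with the replicate block, 0.0782 without cells of over 20000 tags and -0.14 to 0.0946 with a mouse left out. Ly.6C in NK cells (-0.26) gave 0.00605 by library size. The difference in the Ly6c2 share of T cells, 4.34 percentage points, ran from -0.156 to 8.44 with a mouse left out. The T minus NK effect of Ly6e ran from -0.0452 to 0.0248 with a mouse left out. As means over cells of per-cell CPM, 6 of the 8 members kept their highest class, while Ly6a (458 CPM) and Ly6e (627 CPM) were highest in dendritic cells. Ifitm1 then averaged 1267 CPM in monocyte-labelled and 599.9 CPM in T cells, against 690.3 and 784 CPM over summed UMIs.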
